A study of Homo sapiens with 6 samples.

Results

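The replication-dependent histone genes of K562 cells were compared between a hyperoside group and a control group. K562 is a chronic myeloid leukemia cell line, and hyperoside is a flavonol glycoside from plants. RNA-seq libraries were made from 3 control samples and 3 samples treated with hyperoside, at 2 mM per the study's text. The labels name no other difference between the groups, and neither the time of treatment before RNA extraction nor a vehicle in the control samples is given in the sources used here. All libraries came from 1 established cell line. The labels number the replicates but do not say whether they were separate cultures, so the p-values measure only the spread between these samples, which may be technical. Members were taken by symbol: H1-1 to H1-6, all rows with the stems H2AC, H2BC, H3C or H4C followed by digits, and H2AW and H2BU1. This gave 64 of the 24960 genes in the table, of which 6 encode H1, 17 H2A, 17 H2B, 12 H3 and 12 H4. A filter on low counts left 42 of them for testing, among 15095 genes tested in all.

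Histones H2A, H2B, H3 and H4 form the octamer around which DNA is wrapped, and H1 binds the linker DNA where it enters and leaves this core particle. The genes described here are the ones that supply histones during S phase. They lie in clusters, mostly lack introns and yield mRNAs that end in a conserved stem-loop in place of a poly(A) tail. The stem-loop is bound by SLBP, and the 3′ end is cut with the help of the U7 small nuclear ribonucleoprotein. Whether the libraries were made from polyadenylated RNA or after depletion of ribosomal RNA is not given in the sources used here. A level given below is therefore the amount of histone RNA that the library preparation captured, and fewer cells in S phase and less histone RNA per cell cannot be told apart in bulk samples.

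The stem-loop, the element that sets these mRNAs apart, is shown for 6 members. H2AC6, H3C10 and H4C8 each hold the largest single share of counts in their class over the 6 libraries. H2BC21 and H4C9 fell most among the well-measured members, and H2BC4 is the divergent partner of H2AC6. The sequences were read from GENCODE 29 transcripts, 5′ to 3′, and the capitals mark the stem of 6 base pairs with its loop of 4 bases. A stem-loop of this form within 120 bases after the coding sequence was found in the transcripts of 29 of the 64 members, starting 23 to 68 bases after the stop codon. The search needed a perfect stem that opens with GG and a transcript annotated past its end. No H1 gene is among the 29, and a member without a match may still carry a stem-loop.
H2AC6: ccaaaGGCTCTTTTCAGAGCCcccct
H2BC21: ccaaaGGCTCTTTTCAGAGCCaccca
H2BC4: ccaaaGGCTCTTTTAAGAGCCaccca
H3C10: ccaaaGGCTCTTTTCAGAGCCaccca
H4C8: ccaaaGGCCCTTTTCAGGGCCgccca
H4C9: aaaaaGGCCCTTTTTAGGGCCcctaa
The core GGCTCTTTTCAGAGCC was the commonest, in 17 of the 29 members. All 7 H4 members with a stem-loop had a stem that opens with GGCC, and all 22 H2A, H2B and H3 members with one had a stem that opens with GGCT. H4C8 and H4C9 are shown together because their levels changed in opposite directions.

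Promoter windows from RefSeq (GRCh38.p14), running from 250 bases before to 50 bases after the start of the gene, were matched to 60 of the 64 members. H2AC12, H3C12, H4C1 and H4C3 had no entry. The windows of the 4 members below are shown on the strand of the gene because they carry the largest changes and the largest count among the well-measured members. Capitals mark matches on either strand to 5 motifs: CCAAT, the octamer core TTTGCAT, the H1 box AAACACA, the H4 site core GGTCCG and TATAAA.
H4C8, chr6:26285485-26285784, minus strand: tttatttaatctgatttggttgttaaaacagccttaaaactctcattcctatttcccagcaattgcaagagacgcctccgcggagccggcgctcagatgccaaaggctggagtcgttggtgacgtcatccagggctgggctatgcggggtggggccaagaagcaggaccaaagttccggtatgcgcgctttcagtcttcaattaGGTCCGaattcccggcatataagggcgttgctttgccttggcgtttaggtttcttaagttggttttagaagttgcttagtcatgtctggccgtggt
H4C9, chr6:27139032-27139331, plus strand: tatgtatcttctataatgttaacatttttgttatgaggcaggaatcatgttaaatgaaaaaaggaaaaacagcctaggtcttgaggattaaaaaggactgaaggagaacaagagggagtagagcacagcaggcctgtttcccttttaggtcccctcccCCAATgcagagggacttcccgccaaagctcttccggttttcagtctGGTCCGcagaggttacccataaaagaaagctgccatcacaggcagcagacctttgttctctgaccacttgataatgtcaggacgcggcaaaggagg
H2BC21, chr1:149886633-149886932, minus strand: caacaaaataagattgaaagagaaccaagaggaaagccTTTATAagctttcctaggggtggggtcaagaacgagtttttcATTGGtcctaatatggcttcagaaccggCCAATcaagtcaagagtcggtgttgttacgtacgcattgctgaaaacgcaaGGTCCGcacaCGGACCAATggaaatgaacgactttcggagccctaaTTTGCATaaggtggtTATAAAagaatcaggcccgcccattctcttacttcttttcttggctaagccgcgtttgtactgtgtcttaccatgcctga
H1-2, chr6:26056421-26056720, minus strand: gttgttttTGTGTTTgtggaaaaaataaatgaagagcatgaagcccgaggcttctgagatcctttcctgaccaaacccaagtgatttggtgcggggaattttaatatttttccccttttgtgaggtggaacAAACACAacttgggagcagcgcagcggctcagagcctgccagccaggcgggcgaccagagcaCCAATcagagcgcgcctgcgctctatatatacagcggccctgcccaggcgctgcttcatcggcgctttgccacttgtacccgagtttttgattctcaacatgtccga
GGTCCG was present in 9 of 10 H4 windows, H4C8 and H4C9 included, and in 13.4% of the 27305 gene promoters in the table. Outside H4 it was present in 1 of 16 H2A, 1 of 17 H2B and 1 of 11 H3 windows and in no H1 window. CCAAT was present in all 6 H1, 16 H2A, 17 H2B and 11 H3 windows but in 1 of 10 H4 windows, that of H4C9, against 39.7% of all promoters. TTTGCAT was present in 13 of 17 H2B and 11 of 16 H2A windows, 1 of 11 H3 windows and none of the 6 H1 or 10 H4 windows, against 5.45% of all promoters. AAACACA was present in 6 of 6 H1 windows and in 6.94% of all promoters. Outside H1 it was present in 1 of 16 H2A and 2 of 11 H3 windows and in no H2B or H4 window. TATAAA was present in 9 of 11 H3, 12 of 16 H2A and 12 of 17 H2B windows. It was also present in 3 of 6 H1 and 5 of 10 H4 windows, against 14.0% of all promoters. The window of H2BC21 held GGTCCG on both strands, and 1 of its matches to CCAAT overlaps GGTCCG read on the other strand. Neighbouring H2A and H2B genes share much of their windows, so their matches are not independent. These matches are descriptions of sequence and not of bound factors.

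Library totals over genes ran from 35613283 to 36754725 counts, and 18754 to 19625 genes had at least 1 count. Levels are given as CPM, counts scaled to the size of the library, after TMM normalization, with factors of 0.957 to 1.03. The K562 markers on a fixed list of 10 genes were all present, with a summed level of 5374 to 6850 CPM in control libraries and 4055 to 4878 CPM in hyperoside libraries. For 7 markers of other cell types the sum was 112 to 124 CPM and 122 to 123 CPM, most of it from EPCAM and CD3D, while MS4A1 had 1 count in 1 of the 6 libraries. Differences were tested with edgeR's quasi-likelihood test, adjusted by the Benjamini-Hochberg method over all tested genes. A gene was called lower or higher at an adjusted p under 0.05 and was named a differentially expressed gene (DEG) where the change also exceeded 2-fold.

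Most tested histone genes had lower levels in the hyperoside group. Of the 42 tested members, 29 were called lower (69.0%) and 1, H4C8, was called higher, while 12 were not called. The background was 23.2% lower and 22.1% higher over the whole table. DEGs with lower levels numbered 13, against 3.76% of all tested genes, and DEGs with higher levels numbered 0 in edgeR, against 6.43% of all tested genes. The count of members higher by more than 2-fold was also 0 at an unadjusted p under 0.05 and 0 in DESeq2, and it was 2 in limma on log2(FPKM + 0.1). In 29 of the tested members every hyperoside library lay below every control library, and in H4C8 and H3C12 every hyperoside library lay above. The same was true of 27.3% and 27.1% of all tested genes. The median log2 fold change was -0.76 over the tested members and 0.00 over all tested genes.

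The total over all 64 members was 3453, 3072 and 2867 CPM in control replicates 1, 2 and 3, and 1805, 1708 and 1869 CPM in hyperoside replicates 1, 2 and 3. The groups did not overlap, and control replicate 1 was the highest library. The mean total was 3130 ± 297 CPM (SD, n = 3) in control libraries and 1794 ± 80.9 CPM in hyperoside libraries, which is 57.3% of the control level. As a share of all counts on genes, the members held 0.288% to 0.330% in control libraries and 0.174% to 0.188% in hyperoside libraries.

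In CPM after TMM normalization, all 5 class sums were lower in every hyperoside library than in any control library, by unequal amounts. The H2B sum was 1248 ± 106 CPM (SD, n = 3) in control libraries and 628 ± 3.78 CPM in hyperoside libraries, or 50.3% of control. The H3 sum was 120 ± 16.7 CPM and 65.0 ± 4.86 CPM, or 54.2% of control. H1 and H2A had like ratios. The H1 sum was 1455 ± 167 CPM and 898 ± 67.8 CPM, and the H2A sum was 238 ± 8.72 CPM and 147 ± 11.4 CPM, in both cases 61.7% of control. The H4 sum differed least, at 69.7 ± 4.95 CPM and 56.1 ± 6.23 CPM, or 80.4% of control. Its groups were close, at 64.1 CPM in control replicate 3 and 63.3 CPM in hyperoside replicate 1. By summed FPKM the H4 groups overlapped, at 159.16 in control replicate 3 and 159.58 in hyperoside replicate 1. They also overlapped as a share of all counts on genes, at 0.00643% and 0.00648% in the same libraries. No test was run on these sums.

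**Figure D1:**
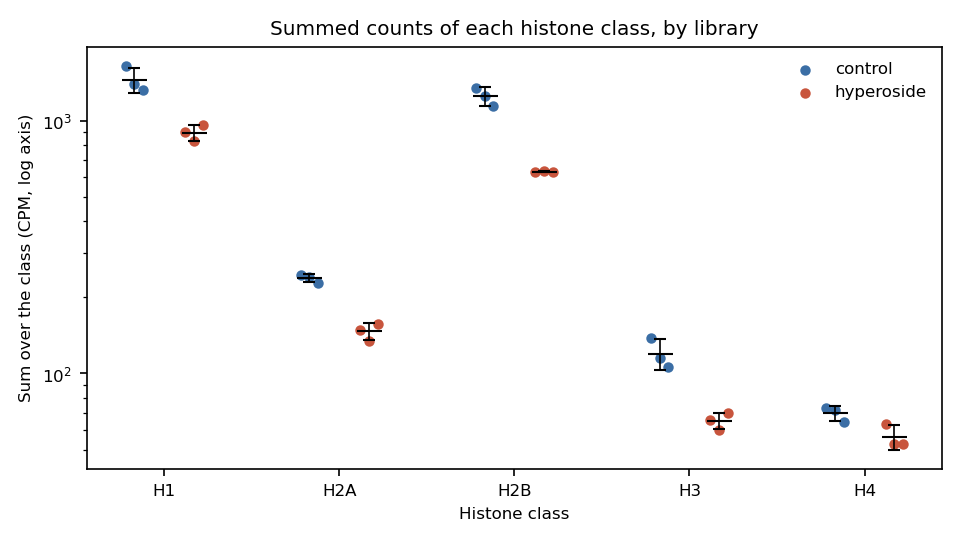
Summed CPM of each histone class (log axis) in the 3 control and 3 hyperoside libraries, with 1 point per library, a black bar for the mean and error bars for the SD. All 5 pairs of groups stand apart in CPM, by the widest margin in H2B, where the hyperoside mean was 50.3% of control. The margin is narrowest in H4, where the mean was 80.4% of control and the groups overlap by summed FPKM.

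The makeup of the histone RNA by class differed by a few percentage points. H1 took 46.4 ± 1.13% of all member counts in control libraries and 50.02 ± 1.54% in hyperoside libraries (SD, n = 3). H2B took 39.9 ± 0.77% and 35.1 ± 1.81%. H4 took 2.23 ± 0.11% and 3.13 ± 0.35%. In these 3 classes the groups did not overlap by share of counts, so that the share of H2B was lower and the shares of H1 and H4 were higher in every hyperoside library. The share of H2A was 7.63 ± 0.48% and 8.17 ± 0.27%, and that of H3 was 3.82 ± 0.17% and 3.62 ± 0.11%, with groups that overlapped in both classes. The control library with the highest H4 share had 2.34% (exact 95% binomial interval 2.25% to 2.43%), and the hyperoside library with the lowest had 2.81% (2.69% to 2.94%). Such intervals cover counting error only.

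Because counts grow with transcript length, classes are better compared per length. By summed FPKM, H1 made up 47.5% of the control total, H2B 31.5%, H2A 11.2%, H3 5.61% and H4 4.12%. In the hyperoside group the FPKM shares were 49.6%, 28.2%, 11.7%, 4.93% and 5.58% in the same order. Which classes stood apart depended on the measure. By FPKM share the groups overlapped in H1, at 48.8% in control replicate 1 and 48.5% in hyperoside replicate 2, and in H2A. They did not overlap in H2B, H4 or H3, the last with 5.42% to 5.92% in control and 4.75% to 5.08% in hyperoside libraries. Equal amounts of the 4 core histones enter a nucleosome, and the captured RNA was far from equal per deposited length in either group. That length is 887 bases for H2BC12 and 2224 bases for H2BC21 but 409 bases for H4C8. Where reads came from transcripts shorter than the deposited length, FPKM understates the level of a gene. H4 had the lowest FPKM share in all 3 control libraries and in hyperoside replicate 3, at 5.01% against 5.08% for H3, while H3 had the lowest share in hyperoside replicates 1 and 2.

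Within a class, a few genes held most of the counts. H1-2 alone held 98.9% of the H1 counts over the 6 libraries. The same 90% of counts was held by 5 members in H2A, 6 in H2B, 3 in H3 and 4 in H4. The largest single shares after H1-2 were those of H3C10 with 69.5% of H3 counts, H2BC12 with 52.9% of H2B counts, H4C8 with 46.1% of H4 counts and H2AC6 with 37.3% of H2A counts. The 22 members that did not pass the filter reached at most 17 counts in any library and held 0.081% of all member counts. They were not tested in edgeR, and at these counts only large differences could be seen. Among them, H1-1 had 0, 0 and 2 counts in control libraries and 6, 4 and 6 in hyperoside libraries, and H3C6 had 0, 2 and 2 counts and then 6, 7 and 6, without overlap in either gene. H1-1 was called higher by limma on log2(FPKM + 1) and on log2(FPKM + 0.1).

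**Figure D2:**
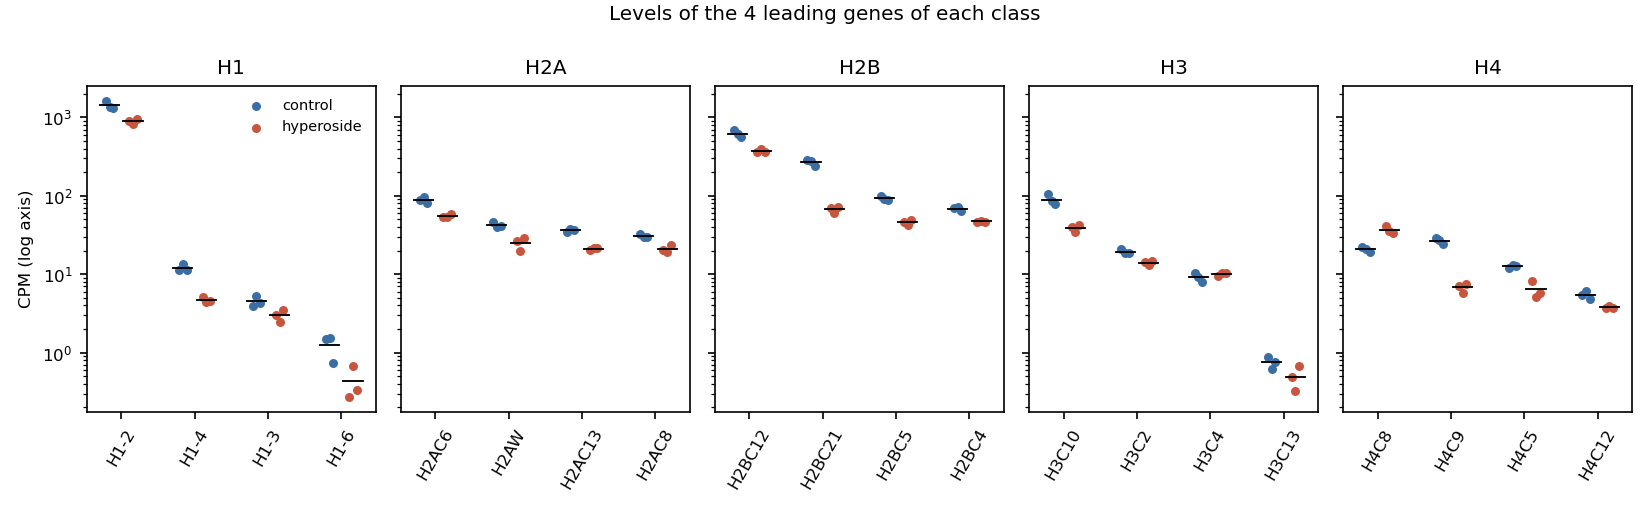
CPM (log axis) of the 4 members with the highest mean level in each class, with 1 point per library and a black line at the group mean. Of these 20 genes, H4C8 rose from 20.8 to 36.8 CPM on average, H3C4 overlapped between groups at 9.15 and 10.01 CPM, H3C13 overlapped at less than 1 CPM, and the other 17 were lower in every hyperoside library.

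Linker histone H1 was represented almost entirely by H1-2, one of the H1 subtypes made in most dividing cells. H1-2 was measured at 1627, 1373 and 1312 CPM in the control libraries and at 892, 821 and 956 CPM in the hyperoside libraries. The groups stood well apart, with a log2 fold change of -0.69 (SE 0.08, adjusted p = 2.37e-06). H1-4, another common linker subtype, was present at 11.4, 13.5 and 11.3 CPM and at 5.15, 4.38 and 4.57 CPM. It fell by 1.36 on the log2 scale (SE 0.15, adjusted p = 1.11e-06) and was a DEG. Thus all 4 tested H1 genes were called lower, 2 of them as DEGs, and the class median was -1.03.

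The other tested H1 genes were low. H1-3 had 3.98, 5.28 and 4.31 CPM in control libraries and 3.02, 2.48 and 3.49 CPM in hyperoside libraries, which did not overlap. Its log2 fold change was -0.59 (SE 0.22, adjusted p = 0.0335), and the adjusted p became 0.147 without control replicate 2, 0.0713 without hyperoside replicate 1 and 0.117 without hyperoside replicate 2. The call was also lost with library totals only (adjusted p = 0.0526). H1-6, known as the testis linker histone, had 53, 54 and 26 counts in control libraries and 10, 25 and 12 in hyperoside libraries. The lowest control library exceeded the highest hyperoside library by a single count. Its log2 fold change was -1.54 (SE 0.50, adjusted p = 0.0181), and it was not called without control replicate 1 or 2 or hyperoside replicate 1 or 3 (adjusted p of 0.0536, 0.0754, 0.0739 and 0.0708). H1-5 had at most 17 counts and H1-1 at most 6, and neither was tested.

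In H2A, 6 of 11 tested genes were called lower and 5 were not called, with a class median of -0.65. H2AC6, the H2A gene with most counts, was measured at 87.3, 95 and 80.4 CPM in control libraries and 54.2, 54.3 and 59.1 CPM in hyperoside libraries. It fell by 0.65 on the log2 scale (SE 0.08, adjusted p = 6.63e-06). H2AW lies in the small cluster at 1q42 and stood at 46.1, 40.4 and 40.7 CPM against 26.8, 19.9 and 29 CPM. Its log2 fold change was -0.75 (SE 0.12, adjusted p = 6.09e-05). Both genes were lower in 3 of 3 hyperoside libraries than in any control library.

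H2AC13 had 34.7, 37.2 and 37.0 CPM in control libraries and 20.3, 21.3 and 21.7 CPM in hyperoside libraries, the tightest replicates among the leading H2A genes, with a log2 fold change of -0.78 (SE 0.09, adjusted p = 2.31e-06). H2AC8 had 32.2, 29.4 and 29.4 CPM and then 20.4, 18.9 and 23.2 CPM, a log2 fold change of -0.54 (SE 0.10, adjusted p = 0.000345). The only DEG of the class was H2AC11, which went from 26.7, 24.9 and 23.7 CPM to 12.9, 9.56 and 11 CPM. It fell by 1.17 on the log2 scale (SE 0.12, adjusted p = 5.39e-07). H2AC15, the sixth called gene, had a log2 fold change of -0.63 with an adjusted p of 0.0121, which became 0.0585 without hyperoside replicate 2.

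H2AC17 differed from these genes in its values. It was measured at 6.46, 4.72 and 6.52 CPM in control libraries and 6.13, 4.71 and 6.4 CPM in hyperoside libraries, so that the groups overlapped throughout. Its log2 fold change was -0.04 (SE 0.19, adjusted p = 0.885), and its sign changed in 6 of the alternatives. The largest fold estimate of the class belonged to H2AC18, with 12, 14 and 8 counts against 2, 2 and 10 counts. Its log2 fold change of -1.30 (SE 0.75) was not called, and its coding sequence is identical to that of H2AC19. H2AC7, H2AC12 and H2AC16 were also not called, with log2 fold changes of -0.50, -0.59 and -0.76.

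All 13 tested H2B genes were called lower, and 7 of them were DEGs. H2BC12, the leading H2B gene, was measured at 690, 613 and 555 CPM in control libraries and 365, 392 and 360 CPM in hyperoside libraries. It fell by 0.74 on the log2 scale (SE 0.08, adjusted p = 7.8e-07). H2BC21 lies in the 1q21 cluster and was the second H2B gene, at 288, 279 and 241 CPM against 69.3, 60.3 and 71.3 CPM. Its level in the hyperoside group was 24.9% of control, and its log2 fold change was -2.01 (SE 0.09, adjusted p = 1.28e-11). This is the smallest adjusted p among the members, and all 3 control libraries lay far above all 3 hyperoside libraries.

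The makeup of the H2B counts differed with it. The share of H2BC21 in H2B counts was 21.6 ± 0.65% in control libraries and 10.7 ± 1.0% in hyperoside libraries, while that of H2BC12 was 49.6 ± 1.25% and 59.2 ± 2.42% (SD, n = 3). Without H2BC21 the H2B sum went from 979 ± 83.0 CPM to 561 ± 9.67 CPM, a log2 ratio of -0.80 in place of -0.99. Without H2BC12 the log2 ratio was -1.30. H2BC12 itself stood at 60.1% of control.

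Other H2B genes at high levels followed. H2BC5 had 100, 89.7 and 88.1 CPM against 46.5, 42.3 and 49.6 CPM, a log2 fold change of -1.01 (SE 0.09, adjusted p = 5.91e-08). H2BC11 had 73.4, 64.2 and 64.6 CPM against 22.6, 27.4 and 23.8 CPM, a log2 fold change of -1.45 (SE 0.10, adjusted p = 3.16e-09). H2BC4 had 70.8, 71.0 and 64.4 CPM against 46.6, 48.1 and 46.9 CPM, a log2 fold change of -0.54 (SE 0.08, adjusted p = 3.06e-05). All 3 genes encode canonical H2B proteins that differ at few residues, and H2BC11 fell most and H2BC4 least of them. H2BC8, with a mean of 45.1 CPM in the control group, was also lower, at -0.89.

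Among the H2B genes at lower levels, 4 were DEGs. H2BC7 had 24.7, 26.3 and 23.4 CPM in control libraries and 13.2, 10.6 and 11.2 CPM in hyperoside libraries, a log2 fold change of -1.09 (SE 0.11, adjusted p = 6.08e-07). H2BC17 had 14.0, 12.5 and 14.2 CPM and then 6.81, 4.66 and 5.09 CPM, a log2 fold change of -1.30 (SE 0.16, adjusted p = 3.07e-06). H2BC18 had 5.32, 7.64 and 5.37 CPM and then 2.26, 2.34 and 3.35 CPM, a log2 fold change of -1.20 (SE 0.22, adjusted p = 0.000276). No hyperoside library reached the level of a control library in any of these genes. The span of H2BC18 overlaps that of the neighbouring gene FCGR1A in the annotation, so reads there may have been set aside or divided.

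H2BU1 is the partner of H2AW at 1q42. It had 3.24, 2.90 and 3.16 CPM in control libraries and 1.01, 1.03 and 1.02 CPM in hyperoside libraries, a log2 fold change of -1.60 (SE 0.28, adjusted p = 0.00015). The smallest H2B change was that of H2BC15, at 25.1, 27.9 and 29.3 CPM against 19.0, 17.7 and 21.4 CPM, with a log2 fold change of -0.50 (SE 0.11, adjusted p = 0.000862). H2BC9 and H2BC13 were called lower at -0.89 and -0.71. The call of H2BC13, with an adjusted p of 0.0195, was lost without control replicate 1 (adjusted p = 0.053) and without hyperoside replicate 3 (adjusted p = 0.0863).

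**Figure D3:**
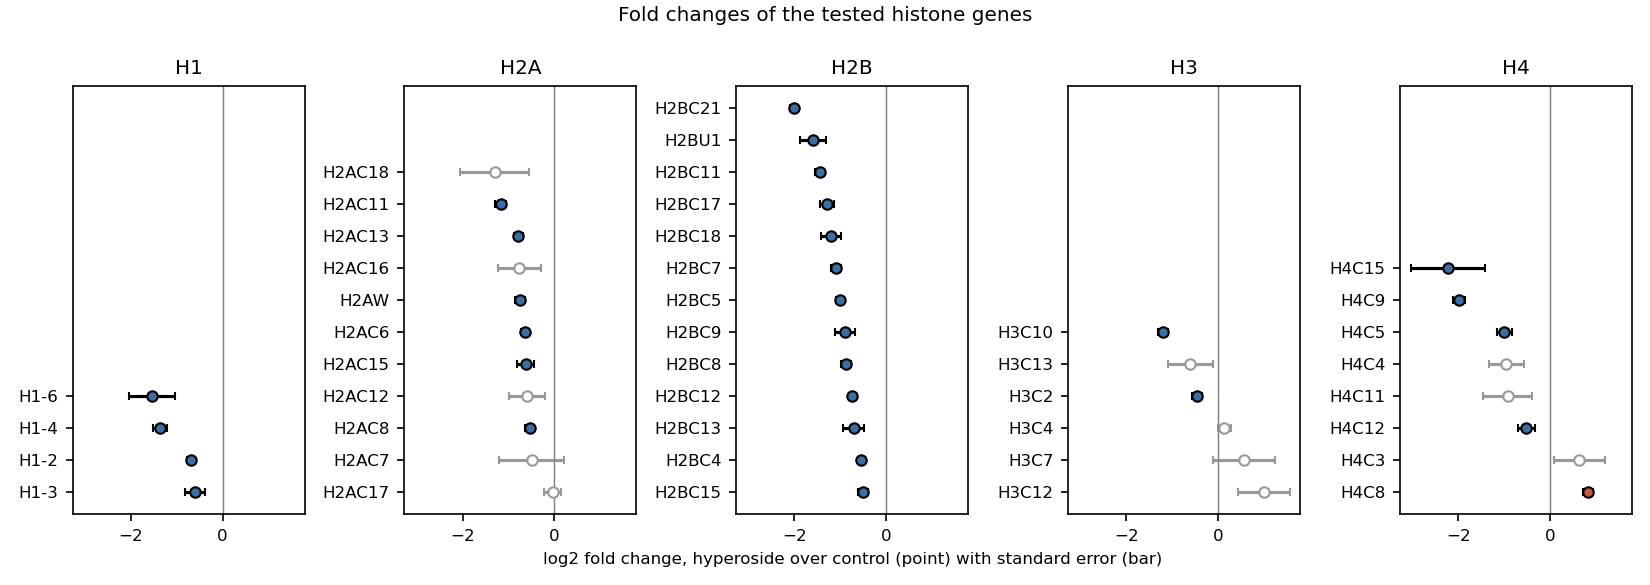
Log2 fold change of hyperoside over control for the 42 tested members by class, with bars for the standard error. Filled blue points were called lower, the filled red point was called higher and open grey points were not called. All 13 H2B genes lie left of 0, whereas H4 spans from -2.22 in H4C15 to 0.82 in H4C8.

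In H3, 2 of 6 tested genes were called lower (33.3%) and 4 were not called. Over all tested genes 23.2% were called lower, so the H3 count was near the background. The fold estimate was negative in 3 of the 6 genes. H3C10 carried the decline of the class sum. It was measured at 105, 85.7 and 77.9 CPM in control libraries and 39.9, 34.7 and 42.4 CPM in hyperoside libraries, and it was a DEG with a log2 fold change of -1.20 (SE 0.11, adjusted p = 9.15e-08). Its share of H3 counts was 74.6 ± 1.26% and 59.9 ± 1.70% (SD, n = 3). The sum over the other 11 H3 genes was 30.2 ± 2.79 CPM and 26.0 ± 0.98 CPM, a log2 ratio of -0.22.

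H3C2 had 21.1, 18.5 and 18.7 CPM in control libraries and 14.2, 13.2 and 14.8 CPM in hyperoside libraries. It fell by 0.47 on the log2 scale (SE 0.11, adjusted p = 0.00213). H3C4 was measured at 10.2, 9.23 and 7.98 CPM against 9.37, 10.4 and 10.3 CPM, groups that overlapped, with a log2 fold change of 0.13 (SE 0.14, adjusted p = 0.48). In the annotation H2AC7 lies within H3C4 on the same strand. No stretch of 100 bases of the H3C4 coding sequence was unique to H3C4 among the annotated transcripts, so its count is uncertain. H3C12 had 16, 5 and 13 counts against 20, 19 and 31 counts, and it had the highest fold estimate of all tested members, 0.99 on the log2 scale (SE 0.56, adjusted p = 0.164). It was called higher by limma on log2(FPKM + 1), with an adjusted p of 0.034, and on log2(FPKM + 0.1), with 0.0447. H3C13 had 31, 22 and 27 counts against 18, 12 and 24 counts, with a log2 fold change of -0.61 that was not called, and H3C7 was not called at 0.56.

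The H4 genes moved in opposite directions. All replication-dependent H4 genes other than the divergent H4C7 encode the same protein, so their transcripts differ in sequence but not in what they make. H4C8 was measured at 22.5, 20.8 and 19.3 CPM in control libraries and 41.7, 35.5 and 33.1 CPM in hyperoside libraries. Every hyperoside library lay above every control library, with a mean at 176% of control and a log2 fold change of 0.82 (SE 0.11, adjusted p = 6.95e-06). H4C9 was measured at 29, 27.2 and 24.4 CPM against 7.08, 5.72 and 7.56 CPM. Its mean in the hyperoside group was 25.3% of control, with a log2 fold change of -1.98 (SE 0.13, adjusted p = 2.11e-09).

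The leading H4 gene thus differed between groups. H4C9 held 39.5%, 37.9% and 38.0% of H4 counts in control libraries and 11.2%, 10.9% and 14.4% in hyperoside libraries. H4C8 held 30.7%, 28.9% and 30.0% in control libraries and 65.9%, 67.8% and 63.0% in hyperoside libraries. H4C8 was the second H4 gene in all 3 control libraries and the first in all 3 hyperoside libraries. Without H4C8, the H4 sum went from 48.9 ± 3.52 CPM to 19.3 ± 2.34 CPM (SD, n = 3), a log2 ratio of -1.34 in place of -0.31.

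**Figure D4:**
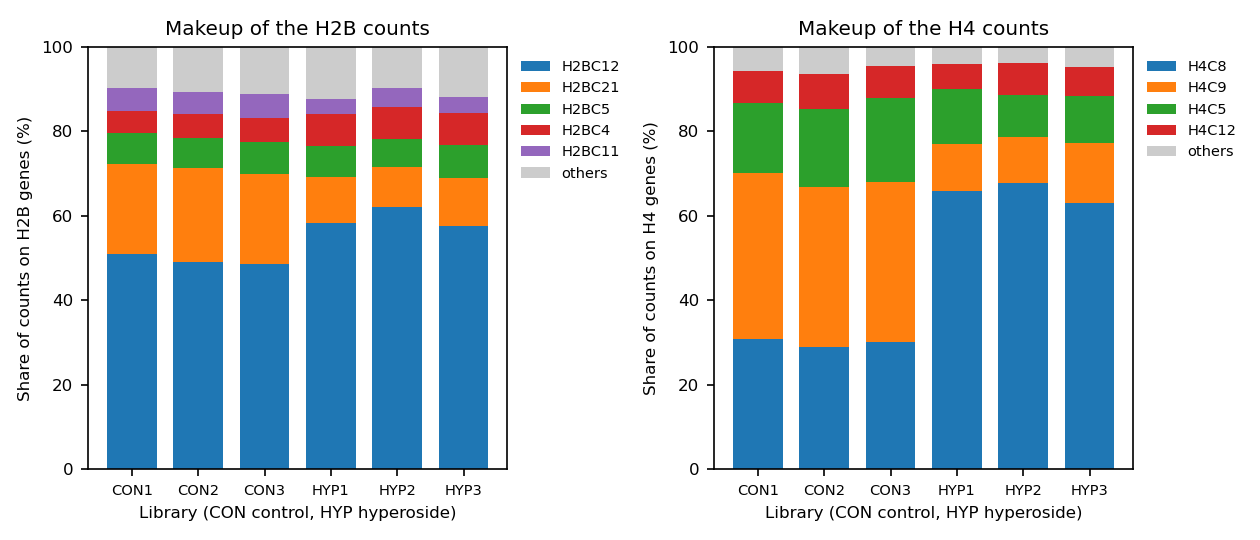
Share of H2B counts (left) and of H4 counts (right) held by the leading genes in each of the 6 libraries, in percent, as stacked bars with all remaining members in grey. H4C8 takes 28.9% to 30.7% of H4 counts in control libraries and 63.0% to 67.8% in hyperoside libraries, while H2BC21 takes 21.1% to 22.3% and then 9.53% to 11.4% of H2B counts.

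H4C5 fell with H4C9. It had 12.1, 13.3 and 12.8 CPM in control libraries and 8.20, 5.17 and 5.76 CPM in hyperoside libraries, a log2 fold change of -1.0 (SE 0.16, adjusted p = 8.29e-05), just short of the 2-fold limit for a DEG. Among the members, the coding sequence closest to that of H4C8 is that of H4C5, with 89.0% identity. Every stretch of 100 bases in the H4C8 and H4C5 coding sequences was unique among the annotated transcripts. H4C9 was also unique by this measure, but its gene lies within the annotated span of H2BC12 on the opposite strand. Whether the counting used strand is not given in the sources used here, and reads from H4C9 and from the long form of H2BC12 could not then be told apart.

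The other H4 genes were at low levels. H4C12 had 5.43, 6.05 and 4.79 CPM against 3.68, 3.95 and 3.71 CPM, with a log2 fold change of -0.52 (SE 0.19, adjusted p = 0.0304). This call was lost without control replicate 2 and without hyperoside replicate 1 or 3 (adjusted p of 0.12, 0.0771 and 0.0741), and the coding sequence of H4C12 is identical to that of H4C11. H4C15 had 53, 16 and 9 counts in control libraries and 0, 7 and 10 counts in hyperoside libraries, which overlapped. Its log2 fold change of -2.22 (SE 0.82, adjusted p = 0.0336) was the lowest of all tested members and rested on control replicate 1, without which it was -1.16 (adjusted p = 0.318). The call was also lost without hyperoside replicate 1 or 2, with adjusted p of 0.121 and 0.0797, with library totals only (0.0503) and in limma on FPKM with 1 or 0.1 added (0.148 and 0.113). H4C15 shares its coding sequence with H4C14 and its annotated span covers H2AC19 and H3C15. H4C4, with a log2 fold change of -0.95 (SE 0.38), missed the threshold at an adjusted p of 0.0522 and passed it without control replicate 3, at -1.15 (adjusted p = 0.0299), and in limma on FPKM with 1 or 0.1 added (adjusted p of 0.0106 and 0.00875). H4C3 and H4C11 were not called, at 0.64 and -0.92.

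H2A and H2B genes often stand head to head and share the stretch between their start sites. In RefSeq, 12 such pairs among the members have start sites 193 to 247 bases apart. Both genes were tested in 9 of these pairs. Both were called lower in 6 pairs, and in the other 3 the H2B gene was called and the H2A gene was not. Over all tested genes 23.2% were called lower. The 3 H2A genes not called were H2AC7, with 3 to 20 counts per library, H2AC12, with 20 to 63 counts, and H2AC17. Of the stretches of 100 bases in their coding sequences, 1.37%, 100% and 15.1% were unique to the gene. Whether these limits bear on the missing calls was not tested. The H2B gene had the lower fold change in 6 of the 9 pairs. The difference within a pair was not tested.

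The members of a pair were at times far apart in level or in change. H2AC17 and H2BC17 start 239 bases apart, and their log2 fold changes were -0.04 and -1.30, the count of H2AC17 being uncertain. H2BC12 and H2AC12 start 247 bases apart and had control levels of 685 and 3.10 FPKM. H2BC21 had a control level of 119 FPKM and its partner H2AC20 one of 0.374 FPKM, and H2AC20 reached at most 11 counts in a library. By contrast, H2BC4 and H2AC6, 245 bases apart, fell by 0.54 and 0.65 on the log2 scale, and H2BC11 and H2AC11, 247 bases apart, fell by 1.45 and 1.17.

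**Figure D5:**
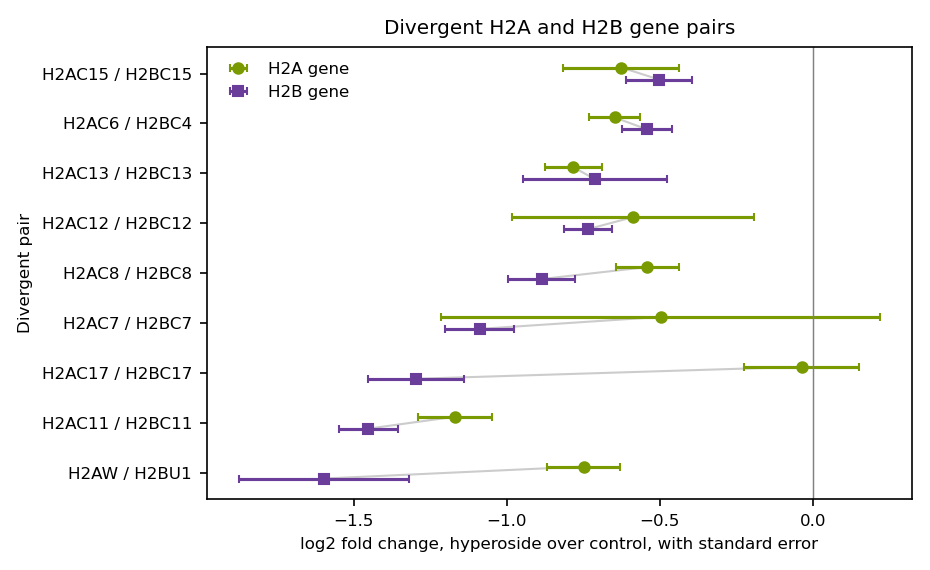
Log2 fold change of hyperoside over control, with standard error, for the H2A gene (circle) and the H2B gene (square) of the 9 divergent pairs in which both were tested. The pair H2AC17 and H2BC17 is the most unequal of the pairs whose standard errors are below 0.2, at -0.04 and -1.30.

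By location, 51 members lie in the large cluster at 6p22, 11 at 1q21 and 2 at 1q42. Of those tested, 24 of 35 at 6p22, 3 of 5 at 1q21 and 2 of 2 at 1q42 were called lower, with medians of -0.71, -1.30 and -1.17. The background for these counts and those by length was 23.2% lower and 22.1% higher over all tested genes. All 3 clusters thus held genes that fell, and H4C8 lies at 6p22 together with H4C9 and H4C5. Of the core histone genes, 8 have a deposited length above 700 bases, which is longer than a transcript that ends at the stem-loop. Of the 7 such genes that were tested, 6 were called lower with a median of -1.01. Of the 31 tested core histone genes with a length up to 700 bases, 19 were called lower and 1 higher with a median of -0.75. H2BC12, H2BC21, H2BC4 and H2BC5 are among the long ones and hold most of the H2B counts.

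Near-identical copies limit the counts of some members. For 9 members no stretch of 100 bases of the coding sequence was unique to the gene, and 5 of these were tested, with 2 called lower. H3C4 is among the 9, although its closest coding sequence of equal length among the members is 88.2% identical. Of the 28 tested members in which all such stretches were unique, 21 were called lower and 1 higher, and their median was -0.76. The pairs H2AC18 and H2AC19, H3C14 and H3C15, H4C14 and H4C15, and H4C11 and H4C12 have identical coding sequences. The low counts of these genes are therefore uncertain.

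Genes that make and remove histone mRNA were also examined. On a list of 25 genes for histone mRNA synthesis, processing and decay, all tested, 7 were called lower and 4 higher, with a median of -0.07 and no DEG in edgeR. Over all tested genes 23.2% were lower and 22.1% higher, so the count of lower genes was near the background. The count of DEGs was also 0 in DESeq2 and in limma, and 0 genes passed 2-fold at an unadjusted p under 0.05. SLBP, the stem-loop binding protein, had 135, 129 and 125 CPM in control libraries and 106, 107 and 105 CPM in hyperoside libraries. It fell by 0.29 on the log2 scale (SE 0.07, adjusted p = 0.00278). LSM11, a protein of the U7 particle, had 34.0, 33.7 and 34.7 CPM against 23.7, 21.1 and 20.4 CPM and fell by 0.65 (adjusted p = 2.69e-05).

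ERI1, an exonuclease that trims the histone mRNA end, was called lower at -0.33 but not in limma on FPKM with 1 or 0.1 added (adjusted p of 0.0647 and 0.0622). CDK2, a kinase that acts at the start of S phase, was called lower at -0.36. NCBP2, the small subunit of the cap-binding complex, was called lower at -0.33. NPAT, the activator of histone transcription at histone locus bodies, had a log2 fold change of -0.15 (adjusted p = 0.202), and CASP8AP2, also called FLASH, 0.15 (adjusted p = 0.296). Without control replicate 1, NPAT passed the threshold at -0.22 (adjusted p = 0.0266). Of the 4 genes called higher, CPSF2 encodes a subunit of the cleavage complex, at 0.26, CSTF2 a subunit of the cleavage stimulation factor, at 0.30, and ZNF473 a U7-associated zinc finger protein, at 0.25. CPSF2 was not called without hyperoside replicate 1 (adjusted p = 0.0848), CSTF2 without control replicate 3 or hyperoside replicate 2 (adjusted p of 0.102 and 0.196) and ZNF473 without control replicate 2 or hyperoside replicate 2 (adjusted p of 0.0976 and 0.122). The number called higher was 2 without control replicate 2, without control replicate 3 or without hyperoside replicate 1, and 1 without hyperoside replicate 2.

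Among 21 histone chaperones, 5 were called lower and 2 higher, with a median of -0.10, beside 23.2% lower and 22.1% higher over all tested genes, so that the lower count was again near the background. HJURP, which loads the centromeric histone CENPA, had 119, 107 and 94.7 CPM against 56.1, 57.8 and 57.5 CPM, a log2 fold change of -0.90 (adjusted p = 2.08e-07). CABIN1, a partner of the HIRA complex, was called lower at -0.56 and RBBP7 at -0.36. ATRX and IPO4 were called higher, at 0.39 and 0.37. ATRX was not called without hyperoside replicate 1 or 3 (adjusted p of 0.055 and 0.0513), nor IPO4 without control replicate 2 or 3 or hyperoside replicate 2 (adjusted p of 0.0586, 0.221 and 0.382). Neither was called in limma on FPKM with 1 or 0.1 added, with adjusted p of 0.0627 and 0.0654 for ATRX and of 0.0882 and 0.0854 for IPO4. The number called lower was 3 without hyperoside replicate 3, and the number called higher was 4 without control replicate 1 and 1 without control replicate 2 or 3 or hyperoside replicate 1 or 2.

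Replacement histones, which are also made outside S phase, were measured for comparison. Of 9 tested, 4 were called lower, which were H1-10 at -0.82, CENPA at -0.64, H2AX at -0.55 and H3-3A at -0.40. The background was 23.2% lower and 22.1% higher over all tested genes. MACROH2A1 was called higher at 0.38 and H3-3B at 0.19, the latter lost without control replicate 2 or 3 or hyperoside replicate 1 or 3 (adjusted p of 0.0683, 0.12, 0.126 and 0.0979), when the number called higher was 1. Their median log2 fold change was -0.16.

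Markers of cell cycle phases were examined beside the histone genes. Of 24 S phase genes, 6 were called lower and 3 higher, with a median of 0.00, and their summed level was 3803 to 4381 CPM in control libraries and 3877 to 4249 CPM in hyperoside libraries. GINS2, RFC4 and CDC6 were called lower at -0.62, -0.50 and -0.35, and TYMS, POLA1 and UHRF1 were called higher at 0.50, 0.39 and 0.30. The lower count was near the 23.2% of the background and the higher count did not exceed its 22.1%. All 6 named genes act in DNA replication, thymidylate supply or the copying of DNA methylation. UHRF1 was not called without control replicate 2 or 3 or hyperoside replicate 2 (adjusted p of 0.0961, 0.0762 and 0.191). The number called higher was 6 without control replicate 1. Of 14 tested G2 and M genes, 10 were called lower and 0 higher in edgeR, with 0 higher at an unadjusted p under 0.05 and 0 in DESeq2 and limma. Their median was -0.39, and the sum over the 15 listed genes was 3627 to 3795 CPM in control libraries and 2840 to 2887 CPM in hyperoside libraries. CDK1, the kinase that drives entry into mitosis, fell by 0.65, AURKB, a mitotic kinase, by 0.82 and BUB1, a spindle checkpoint kinase, by 0.53. The part of the cell cycle in the lower histone RNA was not tested.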

How the data were processed

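Per the labels, total RNA of K562 cells was extracted with TRIzol and libraries were made with the VAHTS Universal V6 kit. The submitters' processing notes name fastp, HISAT2, HTSeq and hg38, and the annotation and the use of strand are not given in the sources used here. The authors deposited raw counts per gene. The authors also deposited FPKM values, scaled to gene length and library total. Members and gene lists were chosen with earlier results of these data known.

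Counts were filtered with filterByExpr (minimum count 10, minimum total 15), normalized by TMM and tested with edgeR 4.0.16 (R 4.3.3), with group as the sole factor. Benjamini-Hochberg adjustment covered all tested genes. A DEG needed an adjusted p below 0.05 and a change of more than 2-fold, the study's thresholds, while the study itself used DESeq. Standard errors were the log2 fold change divided by the root of F. Values of 1 library are subject to counting error, and a count of 0 allows up to 3 counts. Class sums use all members, tested or not.

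The text names the 4 members of each class with most counts, the DEGs, the extremes of each class, SLBP, NPAT, CASP8AP2, ERI1 and up to 3 called genes per direction and list. Other genes were named after their values were seen. Promoters came from RefSeq, and transcripts, stem-loops and windows of 100 bases from GENCODE 29. Alternatives used DESeq2 1.42.0, limma 3.58.1, other normalizations and filters, a block on replicate number and the removal of each library in turn. The edgeR steps were checked on simulated counts. Tables were combined with pandas 2.3.3 and numpy 2.4.6 in Python 3.11.15, and figures drawn with matplotlib 3.10.9.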

Additional observations from a re-analysis of the deposited data

How the results depend on the processing

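Across 14 alternatives, 33 of the 42 tested members kept their direction and their side of the threshold wherever they were tested. The number of members called lower was 27 to 29 under other normalizations, tests and filters and 25 to 30 with 1 library left out. The number called higher was 3 in limma on FPKM with either added constant (H4C8, H3C12 and H1-1), and the number of DEGs with higher levels was 2 with 0.1 added. H2AC17 changed sign with library totals only (0.012), in limma with 1 added (0.013) and with 0.1 added (0.015), without control replicate 1 (0.034), without control replicate 3 (0.037) and without hyperoside replicate 2 (0.087), and ranged from -0.18 to 0.087 with 1 library left out. DEGs with lower levels numbered 11 to 14 with 1 library left out.

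Class sums were also taken without the member of the class with most counts. Their log2 ratio was then -1.10 for H1, -1.30 for H2B, -0.22 for H3 and -1.34 for H4. For all classes together it was -1.13 without the leading member of each class. Without H1-2, the share of H1 changed by -0.14 percentage points and that of H3 by 0.13, both opposite in sign to the values with it, that of H2A by 2.13 and that of H4 by 2.08. In FPKM, the share of H3 changed by -0.68 and that of H4 by 1.46 percentage points. These alternatives change which members enter the sums or scale counts by length, and the cause of the shifts was not tested. With 1 library left out, the log2 ratios ranged from -0.76 to -0.60 for H1, -0.75 to -0.64 for H2A, -1.05 to -0.93 for H2B, -0.96 to -0.77 for H3, -0.41 to -0.27 for H4 and -0.86 to -0.73 for all. The changes in share ranged from 2.79 to 4.33 (H1), 0.26 to 0.70 (H2A), -5.80 to -4.02 (H2B), -0.25 to -0.10 (H3) and 0.71 to 1.05 percentage points (H4).

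The chaperones called lower numbered 3 with library totals only and in limma with either constant, and those called higher 1 in limma with either constant, while the cause was not tested. With 1 library left out, the numbers lower and higher were 3 to 5 and 1 to 4 for chaperones, 6 to 8 and 1 to 4 for the histone mRNA list, 4 to 6 and 2 to 6 for S phase, 9 to 10 and 0 for G2 and M, and 4 to 5 and 1 to 2 for replacement histones. Same-numbered libraries did not deviate together (correlations of -0.081, -0.033 and -0.034), against -0.027 to 0.064 for the other pairs of libraries. With 3 libraries per group, such correlations cannot decide whether the samples were paired, and the labels do not say. With the replicate number as a block, 27 members were called lower and 1 higher, 2 genes of the histone mRNA list were called higher and 1 replacement histone was. The calls lost under the block among the named genes were those of H1-3 (adjusted p = 0.0506), H4C15 (0.101), ZNF473 (0.065) and H3-3B (0.0829).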

Other observations

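Of the other rows with histone symbols, 11 lie outside both the rule for members and the list of replacement histones, among them H2BC12L, H2AP and H3Y2, and were looked up after the members' values were seen. None of the 11 passed the filter on low counts, and the highest count in any library was 14.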
